A study of Arabidopsis thaliana with 12 samples.

Results

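The genes described here encode protein subunits of the cytosolic ribosome of Arabidopsis thaliana. They were taken as a fixed list of 59 loci from 26 families. These run from RPL3 to RPL27a in the large subunit and from RPS3 to RPS18 in the small subunit. The list was set by family, but it was chosen with earlier results of these data known. The deposited table of 14897 genes held 57 of them, 42 of the large and 15 of the small subunit, with members in all 26 families. The other 2 listed genes, RPL10B among them, were not analysed here. Most Arabidopsis ribosomal protein families have several nearly interchangeable copies (paralogs), and 21 of the families here had at least 2 measured copies, 52 genes in all. A gene without a symbol in the TAIR10.1 annotation is called by its locus identifier and family.

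Whole seedlings, 14 days old and grown in liquid culture under continuous light at 23 ℃, were given L-glutamate (L-Glu) or urea at 20 mM for 48 h, and RNA was sequenced. There were 4 groups of 3 libraries: sid2 given L-Glu, sid2 given urea, Col-0 given L-Glu and Col-0 given urea. Col-0 is the Columbia wild type, and sid2 carries a defect in SID2 (ICS1), an isochorismate synthase that makes the precursor of the defence hormone salicylic acid; the labels do not give its allele. No untreated seedlings were included, so each L-Glu effect is relative to urea, whose own effect cannot be told apart. The labels do not state whether replicate libraries had cultures of their own, so the p-values cover only library-to-library spread, which may be technical.

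A ribosome of the cytosol has a small subunit, which holds the mRNA and reads its codons, and a large subunit, which joins the amino acids and carries the exit tunnel. Each subunit is built in the nucleolus from ribosomal RNA and one copy of most of its proteins. Plants make ribosomal protein transcripts in quantity in growing and dividing tissue, and the TOR kinase, which responds to nutrients and light, promotes their use through S6 kinase and other targets. The promoters of these genes are known for short shared motifs, the site II element bound by TCP factors and the telo box.

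Before the members, the libraries. The authors' normalized signal summed to 2564530 to 4419990 per library, with library medians of 74.1 to 77.2, and the number of reads behind it is unknown, so no counting interval is given. SID2, the targeted gene, had a signal of 5421 to 7434 in sid2 given L-Glu, 29.8 to 65.4 in sid2 given urea, 7461 to 10896 in Col-0 given L-Glu and 89.6 to 100.1 in Col-0 given urea. Its transcript was present in sid2, so this level does not check the genotype labels. On principal components of all genes, replicate 1 of Col-0 given urea stood apart on component 3, at 56.6 against -9.20 and -11.9 for its group, and replicate 2 of Col-0 given L-Glu on component 2, at 52.0 against 21.4 and 24.0. Counts of members are therefore also given without those 2 libraries. The tissue was checked by markers. All 5 green tissue markers were present, and their summed signal was 2036 to 3254 in sid2 given L-Glu, 80621 to 111373 in sid2 given urea, 817 to 1514 in Col-0 given L-Glu and 67618 to 78078 in Col-0 given urea. The 6 measured of 8 root markers summed to 3407 to 4201 in sid2 given L-Glu, 2786 to 3462 in sid2 given urea, 4495 to 9279.9 in Col-0 given L-Glu and 2615 to 4148 in Col-0 given urea, most of it from PYK10, a β-glucosidase of the root. In whole seedlings, fewer cells of a type and less RNA per cell cannot be told apart, and the part of a changed tissue make-up in the results below was not tested.

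Promoters are shown because the members moved largely together under L-Glu in Col-0, and for 3 members at the extremes of the results. In the window from 250 bases before to 50 after the annotated start (RefSeq, TAIR10.1), a site II element, searched as TGGGCC or TGGGCT on both strands, was found in 47 of 57 members (82.5%), against 27.5% of the 14818 promoters of the table's genes that could be read. A telo box, AAACCCTA on either strand, was found in 31 members (54.4%), against 5.59% of all promoters. Both motifs stood together in 43.9% of the members and in 2.67% of all promoters, whereas TATAAA, again on both strands, was found in 59.6% and 51.2%. Matches on opposite strands may overlap each other. The 200 bases upstream of the start are printed for 3 members on the gene's own strand, with site II and telo box matches in capitals and TATAAA left in lower case. RPL10C, which rose with L-Glu in both genotypes, lies at chr1:24839090-24840806 on the plus strand, and the stretch is chr1:24838890-24839089. AT5G60670 of the RPL12 family, among the members with the largest falls in Col-0, lies at chr5:24380504-24381599 on the minus strand, and the stretch is chr5:24381600-24381799. AT4G10450, an RPL9 family gene with the widest gap between the genotypes, lies at chr4:6462918-6464558 on the minus strand, and the stretch is chr4:6464559-6464758.
RPL10C: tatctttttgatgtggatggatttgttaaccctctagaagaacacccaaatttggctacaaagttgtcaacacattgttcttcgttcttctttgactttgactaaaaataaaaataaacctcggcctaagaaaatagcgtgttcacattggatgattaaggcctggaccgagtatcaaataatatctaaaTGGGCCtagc
AT5G60670: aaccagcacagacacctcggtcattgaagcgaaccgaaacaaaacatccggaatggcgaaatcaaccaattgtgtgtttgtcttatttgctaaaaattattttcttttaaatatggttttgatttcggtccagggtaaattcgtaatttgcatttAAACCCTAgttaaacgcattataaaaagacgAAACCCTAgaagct
AT4G10450: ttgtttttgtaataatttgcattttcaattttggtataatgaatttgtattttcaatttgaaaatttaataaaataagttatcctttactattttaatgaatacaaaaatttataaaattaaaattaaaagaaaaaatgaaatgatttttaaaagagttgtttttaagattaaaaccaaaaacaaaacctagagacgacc

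The RPL10C stretch holds 1 site II element, 10 bases before the start, and the telo box of RPL10C begins 23 bases after the start. The AT5G60670 stretch holds 2 telo boxes on its own strand, beginning 45 and 14 bases before the start. The stretch of AT4G10450 has no match to either of these motifs, though it holds TATAAA beginning 91 and 89 bases before the start, and its telo box lies after the start. TATAAA also begins 26 bases before the start of AT5G60670. Over all members the site II matches (121 of them) had their median 44 bases before the start, and the 35 telo boxes 2 bases after it. The members with and without a site II element had these median effects of L-Glu: log2 differences of -0.24 (47 genes) and -0.35 (10 genes) in sid2, and of -1.10 and -1.32 in Col-0. For the telo box the order was the other way, with -0.26 in the 31 genes with it and -0.06 in the 26 without it in sid2, and -1.23 and -1.04 in Col-0. A match is a description of letters, not a binding site, and no test was made of it.

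**Figure D1:**
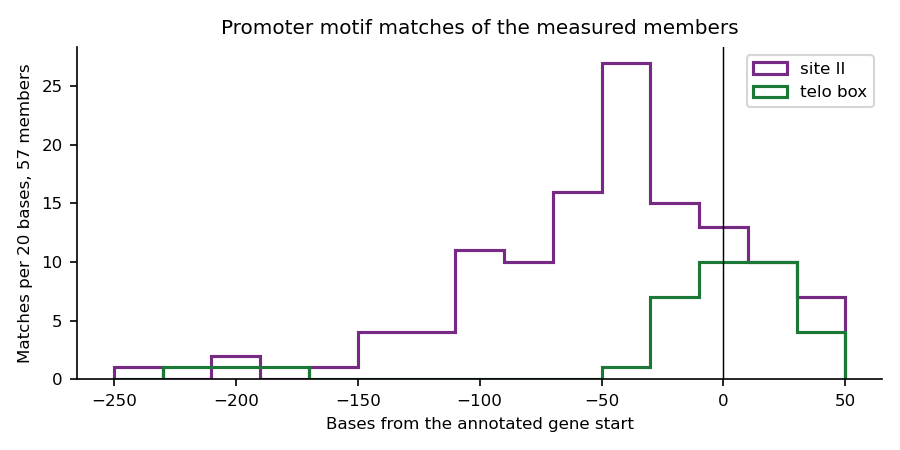
Number of motif matches in each 20-base bin (y axis) by distance from the annotated start of the gene (x axis, bases), over the 57 measured members; the purple outline is site II and the green outline the telo box. Site II matches centre 44 bases before the start and telo boxes 2 bases after it.

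Taken as one body of transcript, the members were lower with L-Glu than with urea in both genotypes, and the gap was wider in Col-0. Their share of the library signal was 0.488%, 0.619% and 0.518% in sid2 given L-Glu, 0.846%, 0.926% and 0.712% in sid2 given urea, 0.327%, 0.336% and 0.346% in Col-0 given L-Glu, and 1.07%, 1.05% and 0.899% in Col-0 given urea. The L-Glu and urea libraries did not overlap in either genotype, and the sid2 L-Glu libraries all lay above the Col-0 L-Glu libraries. Because the totals themselves were higher with L-Glu, the summed signal moved less than the share: it was 22617 ± 2471 in sid2 given L-Glu, 24014 ± 3998 in sid2 given urea, 14199 ± 982 in Col-0 given L-Glu and 26811 ± 2440 in Col-0 given urea (SD, n = 3 each). Summed signal thus differed by less than the spread between libraries in sid2, while in Col-0 the groups lay far apart. The median signal of the 57 members gave the same picture, at 316 ± 33.7 in sid2 given L-Glu, 349.7 ± 31.4 in sid2 given urea, 177 ± 21.1 in Col-0 given L-Glu and 416 ± 19.2 in Col-0 given urea.

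**Figure D2:**
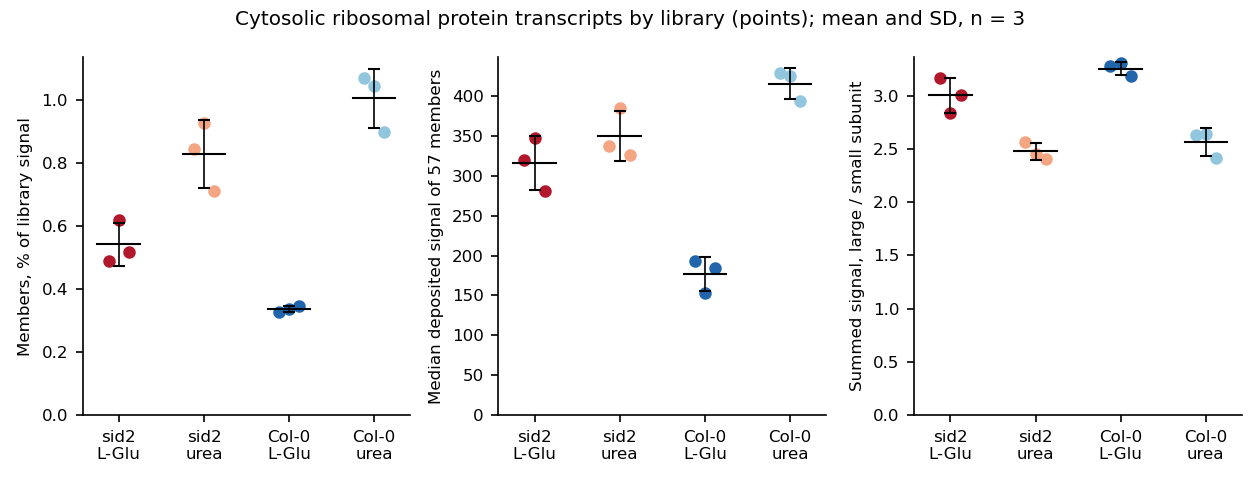
Members by library in the 4 groups (x axes): their share of the library signal in percent (left), the median deposited signal of the 57 members (middle) and the ratio of the summed signal of large to small subunit members (right). Points are libraries, the long bar is the mean and the whiskers are 1 SD (n = 3); Col-0 given L-Glu has the lowest shares, 0.327% to 0.346%, and Col-0 given urea shares of 0.899% to 1.07%.

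Levels can be set side by side between genes only per length, as signal per kb of annotated transcript. On that scale RPL10C was among the highest members. RPL10C had 1605 ± 148 per kb in sid2 given L-Glu, 461 ± 82.7 in sid2 given urea, 2060.1 ± 304 in Col-0 given L-Glu and 525 ± 73.7 in Col-0 given urea (SD, n = 3 each). RPL3A, which reaches close to the site of peptide bond formation, emb2386 (RPL19) and RPL10A followed in the order of means over the 12 libraries. RPL3A had 789 ± 67.8 per kb in sid2 given L-Glu, 934 ± 129 in sid2 given urea, 459.5 ± 50.6 in Col-0 given L-Glu and 979.5 ± 133 in Col-0 given urea (SD, n = 3 each), and with urea it did not differ from emb2386 beyond their spread. emb2386 had 683 ± 122 per kb in sid2 given L-Glu, 882 ± 257 in sid2 given urea, 475 ± 105 in Col-0 given L-Glu and 1093 ± 234 in Col-0 given urea (SD, n = 3 each). RPL10A had 631 ± 118 per kb in sid2 given L-Glu, 612 ± 185 in sid2 given urea, 427 ± 28.9 in Col-0 given L-Glu and 698 ± 216 in Col-0 given urea (SD, n = 3 each). At the low end stood AT4G10450, AT4G13170 of the RPL13a family and RPL16A of the RPL11 family. RPL16A, the lowest member, had 25.2 ± 5.94 per kb in sid2 given L-Glu, 29.8 ± 8.43 in sid2 given urea, 20.3 ± 1.12 in Col-0 given L-Glu and 39.96 ± 19.5 in Col-0 given urea (SD, n = 3 each). A low member of this kind still lay above the lowest gene mean of the table, 6.93 before division by length.

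In sid2, 6 members rose with L-Glu, 14 fell and 37 did not pass an adjusted p of 0.05, with a median log2 difference of -0.24. Over all genes of the table L-Glu changed 64.4% in sid2, 32% up and 32.4% down, so the members' shares of rises and of falls were both below that background. In Col-0, 55 of 57 members fell, 1 rose and 1 was not called, with a median of -1.13, a level 0.456 times that with urea. There the background was 60.1%, 29.7% up and 30.3% down, with a median of -0.05 over all genes. The 4 members that rose in sid2 but fell in Col-0 were AT2G44120, AT4G10450, AT3G58700 and AT5G27850, 14 members fell in both genotypes, and 37 fell in Col-0 and were not called in sid2. The other two were RPL10C, which rose in both, and AT1G33120, which rose in sid2 and was not called in Col-0. Without overlap between L-Glu and urea libraries, 7 members were higher and 12 lower in sid2 (background 35.6% and 36.4%), and 1 was higher and 50 lower in Col-0 (background 30.7% and 31.1%). Without the 2 libraries that stood apart, 8 members rose and 16 fell in sid2, and 1 rose and 46 fell in Col-0. The Col-0 falls of AT2G44120, AT4G10450, AT5G27850, RPL10A, AT3G09630 and AT5G02870 were then not called (adjusted p 0.0512 to 0.632).

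The split in sid2 depended on how libraries were set against each other. Scaled to one total, the median of all genes shifted from near 0 to -0.52 in sid2 and -0.66 in Col-0, and then 2 members rose and 34 fell in sid2, and 1 rose and 56 fell in Col-0. The members called in sid2 at one total and not as deposited included RPL5A, RPL5B, RPL18, RPL24A, RPS5A, RPS6A, RPS6B and AT1G34030 (adjusted p 0.000556 to 0.0175), all of them falls. With quantile normalization 3 rose and 27 fell in sid2. Relative to the median of all genes the members' median was -0.22 as deposited, -0.24 at one total and -0.42 with quantile normalization in sid2, and -1.08, -1.12 and -1.40 in Col-0. Large and small subunit members moved alike: their medians were -0.19 and -0.32 in sid2, and -1.13 for both in Col-0. Members that fell most in Col-0 tended to be the lowest in sid2 as well, with r = 0.79 and rho = 0.78 over 57 members and r = 0.75 and rho = 0.77 without RPL10C; members share their libraries and are not independent.

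**Figure D3:**
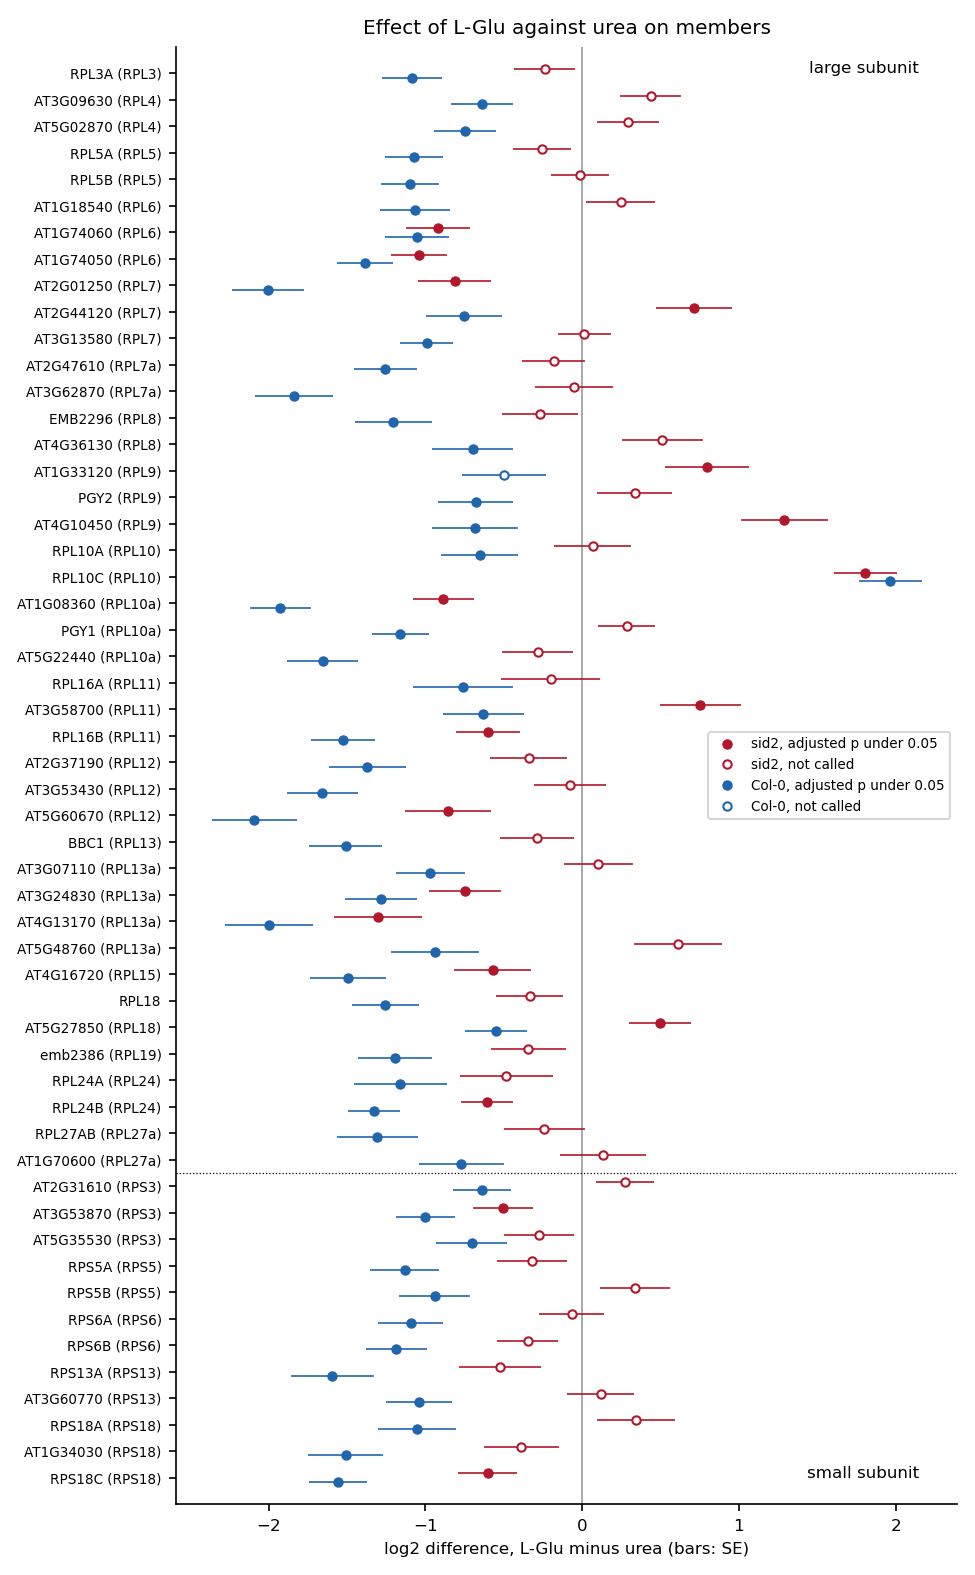
Log2 difference of L-Glu minus urea (x axis) for 54 of the 57 members (rows, large subunit above the dotted line, small subunit below it), in sid2 (red, upper point of a row) and Col-0 (blue, lower point); bars are the SE of the fit and filled points have an adjusted p under 0.05. In Col-0 the plotted members other than RPL10C lie left of 0, and in sid2 some lie on either side of it.

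RPL10, also called uL16, joins the large subunit last and sits near the peptidyl transferase centre. In Col-0 its copies parted more than those of the other families with at least 2 measured copies. RPL10C, annotated as SAG24 (senescence-associated gene), had a signal of 1871, 1667 and 2006 in sid2 given L-Glu, against 560.4, 607 and 424 in sid2 given urea. It had 1978, 2488 and 2647 in Col-0 given L-Glu, against 518, 688 and 607 in Col-0 given urea. Every L-Glu library was above every urea library in both genotypes, with 1.81 ± 0.20 (log2, SE; adjusted p = 2.24e-07) in sid2 and 1.96 ± 0.20 (log2, SE; adjusted p = 7.73e-08) in Col-0. RPL10A, a target in the signalling of the antiviral receptor kinase NIK1, moved otherwise. It had 719.6, 825 and 564 in sid2 given L-Glu, against 619, 912 and 515 in sid2 given urea. RPL10A had 512, 449 and 468 in Col-0 given L-Glu, against 901, 934 and 501 in Col-0 given urea. Its libraries overlapped in both genotypes, with 0.07 ± 0.25 (log2, SE; adjusted p = 0.826) in sid2 and -0.65 ± 0.25 (log2, SE; adjusted p = 0.0288) in Col-0, a call lost without Col-0 L-Glu replicate 2 or 3 or Col-0 urea replicate 1 or 2 (adjusted p 0.0627 to 0.126). As a share of the measured RPL10 signal per kb, RPL10C made up 71.7% ± 5.66 in sid2 given L-Glu, 43.4% ± 3.85 in sid2 given urea, 82.6% ± 3.18 in Col-0 given L-Glu and 43.8% ± 9.31 in Col-0 given urea (SD, n = 3).

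RPL5 and RPL11 carry the 5S ribosomal RNA into the large subunit. RPL5A (PGY3, a PIGGYBACK gene found through leaf patterning) had 589.8, 841 and 733 in sid2 given L-Glu, against 865, 978 and 735 in sid2 given urea. RPL5A had 444, 473 and 419 in Col-0 given L-Glu, against 1036, 918 and 868 in Col-0 given urea, with -1.07 ± 0.18 (log2, SE; adjusted p = 5.8e-05); in sid2 the log2 difference was -0.26 (adjusted p = 0.232). RPL5A libraries were thus clear of each other in Col-0 and overlapped in sid2. RPL5B gave -0.01 in sid2 (adjusted p = 0.957) and -1.10 in Col-0 (adjusted p = 4.59e-05). In the RPL11 family RPL16B fell in both genotypes, with log2 differences of -0.60 in sid2 (adjusted p = 0.015) and -1.52 in Col-0 (adjusted p = 2.74e-06). The sid2 call of RPL16B was lost without sid2 L-Glu replicate 1 or sid2 urea replicate 1 or 2 (adjusted p 0.0648 to 0.0772). Its paralog AT3G58700 had 165, 202 and 113 in sid2 given L-Glu, against 86.3, 126 and 68.5 in sid2 given urea. AT3G58700 had 72.9, 64.6 and 61.4 in Col-0 given L-Glu, against 84.3, 139.5 and 96.4 in Col-0 given urea. It rose in sid2, with 0.75 ± 0.26 (log2, SE; adjusted p = 0.0155), and fell in Col-0, with -0.63 ± 0.26 (log2, SE; adjusted p = 0.0417), and the libraries overlapped in sid2 and not in Col-0. Neither call was firm: the sid2 one was lost without sid2 L-Glu replicate 2 or sid2 urea replicate 3 (adjusted p 0.0949 and 0.0943) and at one total (adjusted p = 0.403), and the Col-0 one without any of 7 libraries (adjusted p 0.0503 to 0.199), which were all those of Col-0 except urea replicate 1, and replicate 1 of each sid2 group.

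The flexible stalks of the large subunit are built on RPL10a, which forms the arm that guides spent tRNA out, and on RPL12, at the base of the stalk that recruits elongation factors. AT1G08360 of the RPL10a family had 175, 186 and 200.3 in sid2 given L-Glu, against 338, 382 and 326 in sid2 given urea. It had 112, 151 and 96.5 in Col-0 given L-Glu, against 567, 426 and 394 in Col-0 given urea. Every L-Glu library was below every urea library in both genotypes, with -0.88 ± 0.19 (log2, SE; adjusted p = 0.000594) in sid2 and -1.92 ± 0.19 (log2, SE; adjusted p = 6.62e-08) in Col-0. PGY1, another RPL10a copy and a leaf patterning gene, gave 0.29 in sid2 (adjusted p = 0.179) and -1.16 in Col-0 (adjusted p = 2.07e-05). AT5G60670 of the RPL12 family had 74.2, 135 and 78.3 in sid2 given L-Glu, against 176, 229 and 122 in sid2 given urea. AT5G60670 had 33.5, 40.1 and 38.9 in Col-0 given L-Glu, against 120.3, 209 and 197 in Col-0 given urea. It fell in both, with -0.86 ± 0.27 (log2, SE; adjusted p = 0.0101) in sid2 and -2.09 ± 0.27 (log2, SE; adjusted p = 1.99e-06) in Col-0, though in sid2 its libraries overlapped and the call was lost without sid2 L-Glu replicate 1 or sid2 urea replicate 2 (adjusted p 0.0553 and 0.0688). AT3G53430, its paralog, gave -0.08 in sid2 (adjusted p = 0.778) and -1.66 in Col-0 (adjusted p = 4.18e-06).

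Families on the surface and in the core of the large subunit held the remaining extremes. AT2G01250 of the RPL7 family had 258, 252 and 244 in sid2 given L-Glu, against 551, 487 and 325 in sid2 given urea. AT2G01250 had 191, 132 and 98.1 in Col-0 given L-Glu, against 617, 591 and 465 in Col-0 given urea. It was lower with L-Glu in every library of both genotypes, with -0.81 ± 0.23 (log2, SE; adjusted p = 0.00486) in sid2 and -2.004 ± 0.23 (log2, SE; adjusted p = 4.19e-07) in Col-0. Its paralog AT2G44120 had 223, 322 and 254 in sid2 given L-Glu, against 173, 176 and 133 in sid2 given urea. AT2G44120 had 113, 65.4 and 134 in Col-0 given L-Glu, against 213, 146 and 159 in Col-0 given urea. L-Glu libraries were all above the urea libraries in sid2 and all below them in Col-0, with 0.71 ± 0.24 (log2, SE; adjusted p = 0.0154) in sid2 and -0.75 ± 0.24 (log2, SE; adjusted p = 0.0118) in Col-0. Those calls were lost without sid2 L-Glu replicate 2 or sid2 urea replicate 3 (adjusted p 0.0827 and 0.0757) and, in Col-0, without Col-0 L-Glu replicate 2 (adjusted p = 0.0892); in sid2 also at one total (adjusted p = 0.496) and with quantile normalization (adjusted p = 0.055).

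AT4G10450 of the RPL9 family, whose protein lies near the factor-binding side of the large subunit, rose more in sid2 than any member but RPL10C. It had 185, 204 and 191 in sid2 given L-Glu, against 89, 69.8 and 73.2 in sid2 given urea. AT4G10450 had 78.3, 35.4 and 97.1 in Col-0 given L-Glu, against 131, 86.4 and 106 in Col-0 given urea. In sid2 every L-Glu library was above every urea library, with 1.29 ± 0.28 (log2, SE; adjusted p = 0.000445), and this held at one total (log2 difference 0.77, adjusted p = 0.0147). In Col-0 the libraries overlapped, with -0.68 ± 0.28 (log2, SE; adjusted p = 0.0388), a call lost without Col-0 L-Glu replicate 2 or Col-0 urea replicate 1 or 3 (adjusted p 0.0724 to 0.296). AT1G33120, its paralog, gave 0.80 ± 0.27 (log2, SE; adjusted p = 0.0144) in sid2 and -0.50 in Col-0 (adjusted p = 0.116). The sid2 call of AT1G33120 was lost without sid2 L-Glu replicate 1 or 2 or sid2 urea replicate 1 or 3 (adjusted p 0.0504 to 0.0683), at one total (adjusted p = 0.337) and with quantile normalization (adjusted p = 0.0623), while Col-0 gained one without Col-0 L-Glu replicate 1 or Col-0 urea replicate 3 (adjusted p 0.03 and 0.0424) and at one total (adjusted p = 0.000386). Reads of AT1G33120 and of PGY2, the other RPL9 copy, may have been divided between them, since their coding sequences are 99.1% identical with a shared run of 458 bases.

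Within the RPL13a family AT4G13170 was among the lowest in both genotypes. It had 36.4, 54.8 and 66.4 in sid2 given L-Glu, against 116, 177 and 109 in sid2 given urea. AT4G13170 had 21.7, 26.9 and 45.5 in Col-0 given L-Glu, against 109, 159 and 128 in Col-0 given urea. The L-Glu and urea libraries were clear of each other in both, with -1.30 ± 0.28 (log2, SE; adjusted p = 0.000509) in sid2 and -1.999 ± 0.28 (log2, SE; adjusted p = 5.35e-06) in Col-0. Its locus overlaps AT4G13160 on the opposite strand by 1376 bp, and whether the counting used strand is not given in the sources used here, so the values of AT4G13170 may include reads of AT4G13160. Overlaps with an opposite-strand gene of the table were found for 5 members in all. Among them were AT5G27850, by 256 bp with AT5G27860, and RPL16B, by 90 bp with AT4G18740, whose values have the same limit. AT5G48760, a paralog, gave 0.61 in sid2 (adjusted p = 0.0641) and -0.94 in Col-0 (adjusted p = 0.0072). Its sid2 value was called with the replicate number as a block (adjusted p = 0.0498) and without sid2 L-Glu replicate 1 or sid2 urea replicate 2 (adjusted p = 0.0172 for both). Of the RPL7a family, AT3G62870 gave -0.05 in sid2 (adjusted p = 0.876) and -1.84 in Col-0 (adjusted p = 3.25e-06). In the RPL6 family AT1G74050 and AT1G74060 fell about as far in both genotypes, with -1.04 and -0.92 in sid2 and -1.39 and -1.05 in Col-0 (all adjusted p at or under 0.000623). Among copies known by role, RPL4 (AT3G09630 and AT5G02870), which lines the exit tunnel, gave 0.44 and 0.29 in sid2 (adjusted p = 0.0592 and 0.201) and -0.64 and -0.75 in Col-0 (adjusted p = 0.00892 and 0.00314). AT3G09630 was called in sid2 with the replicate number as a block (adjusted p = 0.0317) and without Col-0 urea replicate 1, sid2 L-Glu replicate 3 or sid2 urea replicate 1 (adjusted p 0.0372 to 0.0394), and turned to -0.09 at one total and -0.10 with quantile normalization. RPL18 gave -0.34 in sid2 (adjusted p = 0.18) and -1.25 in Col-0 (adjusted p = 5.45e-05), and its paralog AT5G27850 gave 0.50 (adjusted p = 0.034) and -0.55 (adjusted p = 0.0227). The rise of AT5G27850 in sid2 turned to -0.03 at one total and -0.08 with quantile normalization, and was lost without any sid2 L-Glu library or sid2 urea replicate 3 (adjusted p 0.0563 to 0.199). In Col-0 the fall of AT5G27850 was lost without Col-0 L-Glu replicate 1 or Col-0 urea replicate 1 or 2 (adjusted p 0.0563 to 0.0815). RPL24B, known as SHORT VALVE1 and for translation reinitiation on mRNAs with upstream reading frames, fell in both, with -0.61 in sid2 (adjusted p = 0.00358) and -1.33 in Col-0 (adjusted p = 1.16e-06), and RPL24A gave -0.48 (adjusted p = 0.16) and -1.16 (adjusted p = 0.00234).

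RPS6 is the small subunit protein that S6 kinase phosphorylates downstream of TOR. RPS6A had 407, 609 and 707 in sid2 given L-Glu, against 594, 607 and 557 in sid2 given urea. RPS6A had 252, 232 and 323 in Col-0 given L-Glu, against 508, 546 and 674 in Col-0 given urea. Its libraries were clear of each other in Col-0 and overlapped in sid2, with -0.07 ± 0.21 (log2, SE; adjusted p = 0.799) in sid2 and -1.09 ± 0.21 (log2, SE; adjusted p = 0.000164) in Col-0. RPS6B gave -0.35 in sid2 (adjusted p = 0.129) and -1.19 in Col-0 (adjusted p = 3.51e-05). RPS5A, a gene of dividing cells whose mutants are known as minute-like, gave -0.32 in sid2 (adjusted p = 0.215) and -1.13 in Col-0 (adjusted p = 0.000212), and RPS5B gave 0.34 (adjusted p = 0.195) and -0.94 (adjusted p = 0.00135).

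RPS18, in the head of the small subunit, has copies at RPS18A (POINTED FIRST LEAF), AT1G34030 and RPS18C. They gave 0.34, -0.39 and -0.60 in sid2 (adjusted p = 0.232, 0.163 and 0.00857) and -1.05, -1.51 and -1.56 in Col-0 (adjusted p = 0.00119, 2.24e-05 and 6.85e-07). AT2G31610 of the RPS3 family, at the mRNA entry channel, gave 0.28 in sid2 (adjusted p = 0.201) and -0.64 in Col-0 (adjusted p = 0.00603), the smallest fall of a small subunit member there.

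By the interaction term, the sid2 effect of L-Glu minus the Col-0 effect, 14 members differed, each time upward, against 1.95% of all genes, 1.28% upward and 0.671% downward. The median difference over the members was 1.04 on the log2 scale, 2.06-fold, against -0.04 over all genes, and 56 of 57 members had an estimate above 0. At an unadjusted p under 0.05, 46 of the 57 members passed, against 2511 of the 14897 genes. The difference was alike in the large and small subunits, with medians of 1.04 and 1.03. PGY1 had the smallest p. It had 379, 393 and 456 in sid2 given L-Glu, against 303, 385 and 319 in sid2 given urea. PGY1 had 222, 156 and 189.7 in Col-0 given L-Glu, against 484, 404 and 385 in Col-0 given urea. The L-Glu and urea libraries of PGY1 overlapped in sid2 and did not in Col-0, and the difference was 1.44 ± 0.26 (log2, SE; adjusted p = 0.014). AT3G62870 of the RPL7a family had 225, 324 and 222 in sid2 given L-Glu, against 260.0, 305 and 227 in sid2 given urea. AT3G62870 had 99.9, 93.6 and 121 in Col-0 given L-Glu, against 617, 305 and 294 in Col-0 given urea, where replicate 1 with urea stood high above the rest. Its difference was 1.79 ± 0.35 (log2, SE; adjusted p = 0.0215). AT4G10450 had the widest one, 1.98 ± 0.39 (log2, SE; adjusted p = 0.0215). AT3G53430 of the RPL12 family had 333, 314 and 281 in sid2 given L-Glu, against 292, 436 and 272 in sid2 given urea. AT3G53430 had 153, 93.6 and 122 in Col-0 given L-Glu, against 408, 488 and 293 in Col-0 given urea. Its L-Glu libraries were about level with urea in sid2 and all below it in Col-0, with a difference of 1.58 ± 0.32 (log2, SE; adjusted p = 0.0245). The call was lost without sid2 L-Glu replicate 2 for all 4 of these genes (adjusted p = 0.0549 for PGY1, 0.0837 for AT3G62870, 0.0813 for AT4G10450 and 0.0837 for AT3G53430). It was also lost without sid2 urea replicate 3 for AT3G62870, AT4G10450 and AT3G53430 (adjusted p 0.0585 to 0.0719), without Col-0 L-Glu replicate 2 or sid2 urea replicate 1 for AT3G62870 and AT3G53430 (adjusted p 0.0527 to 0.0696), and without Col-0 urea replicate 2 or sid2 L-Glu replicate 1 for AT3G53430 (adjusted p 0.0531 and 0.0553).

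The number of members called by the interaction moved with single libraries and settings. It was 0 without sid2 L-Glu replicate 2, 1 without sid2 urea replicate 3, 2 without sid2 urea replicate 1, 2 without Col-0 L-Glu replicate 2, 3 without Col-0 urea replicate 2, 4 and 5 without sid2 L-Glu replicates 3 and 1, and 9 without sid2 urea replicate 2. Without both libraries that stood apart it was 5. With the replicate number as a block it was 24, at one total 29, and with quantile normalization 4. The median difference stayed between 0.93 and 1.14 when single libraries were left out.

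**Figure D4:**
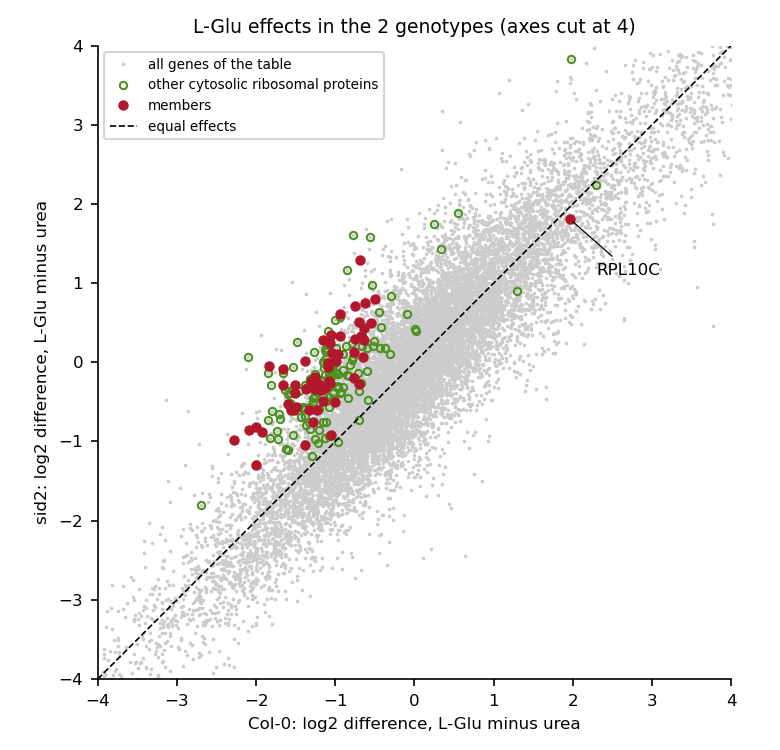
Log2 difference of L-Glu minus urea in sid2 (y axis) against that in Col-0 (x axis) for all genes of the table (grey), other cytosolic ribosomal proteins (green rings) and the 57 members (red); the dashed line marks equal effects and genes beyond 4 on either axis are not drawn. The members lie above the line except RPL10C, at 1.81 in sid2 and 1.96 in Col-0.

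Set directly against each other under L-Glu, sid2 was higher than Col-0 for 40 of 57 members and lower for 0, with a median log2 difference of 0.82, or 1.76-fold. Of all genes 13.3% differed, 7.27% higher and 6.04% lower, with a median of -0.03. For 45 members every sid2 library lay above every Col-0 library (background 16.3%), and for 0 the reverse (background 17.5%). PGY1 again had the smallest p, with 379, 393 and 456 in sid2, against 222, 156 and 189.7 in Col-0. Its log2 difference was 1.11 ± 0.18 (log2, SE; adjusted p = 0.000935). AT3G13580 of the RPL7 family had 355, 347 and 424 in sid2, against 193, 162 and 204 in Col-0. It was higher in every sid2 library, with 0.998 ± 0.17 (log2, SE; adjusted p = 0.00112). AT3G53430 followed with 1.33 ± 0.23 (log2, SE; adjusted p = 0.00125), and RPS18A with 1.41 ± 0.25 (log2, SE; adjusted p = 0.00143). The 17 members not called included both AT1G74060 and AT1G74050 of the RPL6 family, at 0.00 and 0.09, and RPL10C, at -0.35 (adjusted p = 0.256), the one member with an estimate below 0. The count was 20 without sid2 L-Glu replicate 2, 26 without Col-0 L-Glu replicate 2, and 36 without both libraries that stood apart.

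Under urea limma called 0 members between sid2 and Col-0 in either direction, with a background of 0.248% of all genes (0.0671% higher and 0.181% lower), and 2 (BBC1 and AT3G62870) passed an unadjusted p under 0.05, as did 943 of the 14897 genes. The median log2 difference was -0.16, with 47 of 57 estimates below 0. BBC1 of the RPL13 family had the smallest p. It had 236, 342 and 238 in sid2, against 502, 343 and 385 in Col-0. Its difference was -0.59 ± 0.23 (log2, SE; adjusted p = 0.647), and every sid2 library was below every Col-0 library. AT3G62870 gave -0.54 (adjusted p = 0.781), AT1G08360 -0.39 (adjusted p = 0.803) and PGY1 -0.33 (adjusted p = 0.823). BBC1 and AT1G08360 were the 2 members without overlap between the libraries, both lower in sid2, against 5.37% of all genes lower and 5.93% higher. The sid2 urea libraries also served the comparison with L-Glu in sid2, as the Col-0 urea libraries did in Col-0, so these comparisons share libraries.

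In 11 of the 21 families with at least 2 measured copies, a copy's share of its family did not overlap between L-Glu and urea in either genotype, while in others, such as RPL4, RPL24 and RPS6, the shares overlapped in both. Shares were computed within each family per kb of transcript and are described without a test. The range of the L-Glu effect between copies in the RPL10, RPL7, RPL13a and RPL11 families, among the widest in Col-0, was 1.74, 1.52, 1.91 and 1.35 in sid2 and 2.62, 1.25, 1.06 and 0.89 in Col-0. Over the 21 families its median was 0.78 in sid2 and 0.54 in Col-0. AT2G44120 made up 27.9% ± 4.33 of RPL7 in sid2 given L-Glu, 14.7% ± 0.747 in sid2 given urea, 22.3% ± 6.42 in Col-0 given L-Glu and 13.8% ± 2.03 in Col-0 given urea (SD, n = 3). Its share was higher in every L-Glu library than in any urea library of the same genotype. AT5G48760 made up 17.3% ± 2.58 of RPL13a in sid2 given L-Glu, 8.36% ± 1.28 in sid2 given urea, 10.9% ± 3.97 in Col-0 given L-Glu and 8.89% ± 0.796 in Col-0 given urea, with libraries apart in sid2 and overlapping in Col-0. In those 11 families 18 copies had shares that did not overlap and moved the same way in both genotypes, among them RPL10C and RPL10A.

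**Figure D5:**
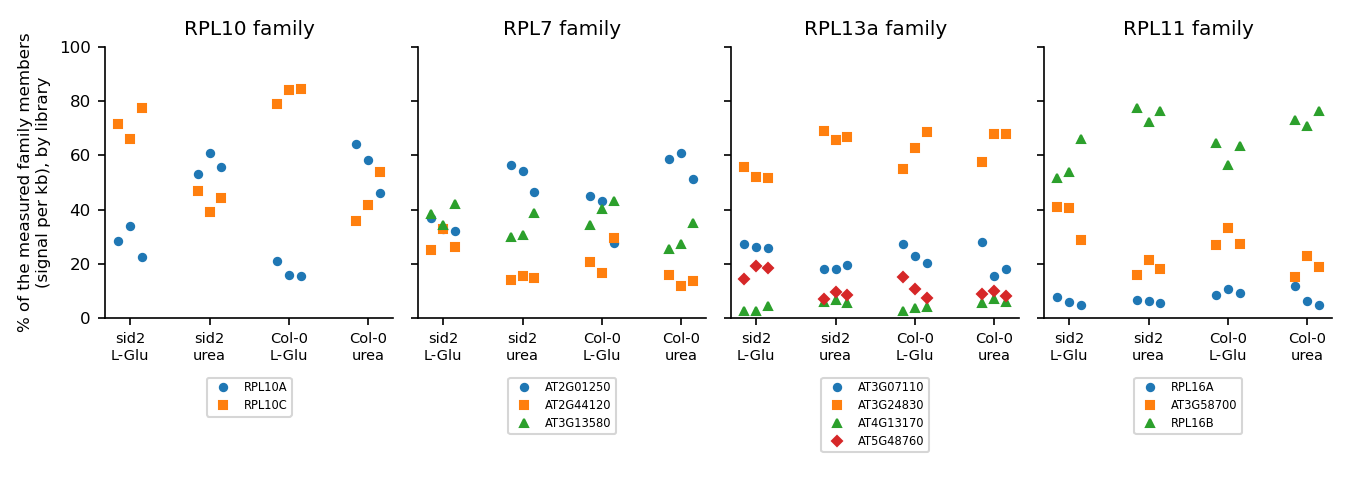
Share of each measured copy in the summed signal per kb of its family (y axis, percent) by library in the 4 groups (x axis), for 4 of the 5 families with the widest range of L-Glu effects between copies in Col-0. Each point is a library; RPL10C has 66.2% to 77.5% in sid2 given L-Glu, 39.2% to 46.7% in sid2 given urea, 78.9% to 84.6% in Col-0 given L-Glu and 35.8% to 54.0% in Col-0 given urea.

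The ratio of summed large to small subunit signal was 3.17, 2.84 and 3.002 in sid2 given L-Glu, 2.57, 2.45 and 2.41 in sid2 given urea, 3.27, 3.30 and 3.18 in Col-0 given L-Glu, and 2.63, 2.64 and 2.42 in Col-0 given urea. It was higher in every L-Glu library than in any urea library. By gene, the median effects of large and small subunit members were -0.19 and -0.32 in sid2, and -1.13 for both in Col-0. The large subunit sum includes RPL10C, which rose with L-Glu. A ratio without RPL10C was not computed, so a general shift between the subunits is not shown. RPL10C, a large subunit gene, had a mean signal of 1848 within a large subunit sum of 16944 in sid2 given L-Glu, 530.5 within 17105 in sid2 given urea, 2371 within 10858 in Col-0 given L-Glu and 604 within 19298 in Col-0 given urea.

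The other genes of translation were given as lists. For comparison, 32% of all genes rose and 32.4% fell in sid2, and 29.7% rose and 30.3% fell in Col-0. Of 138 measured other cytosolic ribosomal protein genes (153 listed), 12 rose and 33 fell with L-Glu in sid2 (median -0.19), and 3 rose and 113 fell in Col-0 (median -1.08), against the members' -0.24 and -1.13. By the interaction 15 were higher and 0 lower, with a median of 0.87, and under L-Glu 75 were higher in sid2 and 0 lower. AT4G25740 was the lowest of those named, at -1.80 in sid2 (adjusted p = 2.74e-05) and -2.69 in Col-0 (adjusted p = 1.93e-07). Motifs were like those of the members too, with site II in 76.8% and a telo box in 44.2%. Of 29 cytosolic translation factors, 10 rose and 6 fell in sid2 (median 0.25), and 3 rose and 11 fell in Col-0 (median -0.36). Among them eEF-1Bb1, an exchange factor for elongation factor 1, fell by 1.02 in sid2 (adjusted p = 0.000262) and by 1.55 in Col-0 (adjusted p = 2.5e-06), whereas EIF2 ALPHA, a subunit of the factor that brings the initiator tRNA, rose by 1.28 (adjusted p = 0.000249) and 1.23 (adjusted p = 0.000414).

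Of 7 genes of TOR and S6 kinase signalling, 3 rose in each genotype and 0 fell. Their median was 0.15 in sid2 and -0.06 in Col-0. Over all genes 32% rose in sid2 and 29.7% in Col-0, and no conclusion on the list as a whole is drawn. S6K2, a kinase of RPS6, rose by 4.96 in sid2 (adjusted p = 1.71e-13) and 5.02 in Col-0 (adjusted p = 1.33e-13), and TCP20, a factor that binds site II elements, by 2.09 (adjusted p = 2.26e-07) and 2.34 (adjusted p = 5.11e-08). LST8-1, a TOR partner, was not called, at -0.06 in sid2 (adjusted p = 0.817) and -0.42 in Col-0 (adjusted p = 0.0994). Of 12 nucleolar ribosome biogenesis genes, 11 rose and 0 fell in sid2 (median 1.06), and 2 rose and 1 fell in Col-0 (median -0.04). FIB2, a fibrillarin that methylates ribosomal RNA, gave 1.01 in sid2 (adjusted p = 0.0131) and -1.54 in Col-0 (adjusted p = 0.000584), and NUC-L1, a nucleolin, 1.81 (adjusted p = 2.02e-07) and 0.56 (adjusted p = 0.0208). In contrast, eIF6A rose alike in both, by 5.72 in sid2 (adjusted p = 2.67e-13) and 5.52 in Col-0 (adjusted p = 3.9e-13). AT4G31420 was called in neither, at 0.20 (adjusted p = 0.41) and -0.45 (adjusted p = 0.0745). Neither eIF6A nor AT4G31420 was called by limma's interaction term (adjusted p = 0.824 and 0.271). The interaction was higher for 5 of the 12 and lower for 0. Nuclear-encoded ribosomal proteins of the plastid moved apart from those of the cytosol: all 30 measured (31 listed) fell in both genotypes, with medians of -4.06 in sid2 and -3.89 in Col-0, and 0 differed by the interaction (1 at an unadjusted p under 0.05).

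Markers of tissue and of dividing cells were read beside these results. All 5 green tissue markers fell in both genotypes, with medians of -4.93 in sid2 and -5.61 in Col-0, and RBCS1A and RCA were higher in sid2 than in Col-0 under L-Glu, by 1.66 (adjusted p = 0.00396) and 1.26 (adjusted p = 0.0124). Of the 6 root markers, 1 rose and 3 fell in sid2, and 2 rose and 1 fell in Col-0. Over all genes 32% rose and 32.4% fell in sid2, and 29.7% rose and 30.3% fell in Col-0. Against these shares, no shift is read from the counts of the root and division genes, whose lists are short. Of the 5 measured genes of cell division and DNA replication (8 listed), 4 rose and 1 fell in sid2, and 2 rose and 1 fell in Col-0. SYP111 was the one that fell, at -2.44 in sid2 (adjusted p = 6.05e-07) and -2.18 in Col-0 (adjusted p = 2.85e-06). MCM2 rose by 1.56 (adjusted p = 0.00114) and 1.55 (adjusted p = 0.00129). PCNA2 gave 0.64 in sid2 (adjusted p = 0.042) and -0.61 in Col-0 (adjusted p = 0.0548). The summed signal of the last list was 216 to 269 in sid2 given L-Glu, 128 to 178 in sid2 given urea, 266 to 281 in Col-0 given L-Glu and 174 to 211 in Col-0 given urea. That sum was thus higher with L-Glu in both genotypes, although SYP111 fell in both. Within it, CDKB2;1 had a mean signal of 66.3 with L-Glu and 19.7 with urea in sid2. In Col-0 the mean signal of CDKB2;1 was 122 with L-Glu and 28.4 with urea. The sum without CDKB2;1 was not computed, so a general rise of the list is not shown. By limma's interaction term 0 of the 5 division genes, 0 of the 6 root markers and 0 of the 5 green tissue markers were called. The share over all genes was 1.95%, so lists this short could hardly show a call, and no conclusion is drawn from the zeros. At an unadjusted p under 0.05, 1 of each list passed, against 2511 of the 14897 genes. The part of these shifts in the levels of the members was not tested.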

How the data were processed

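RNA of 12 Arabidopsis seedling libraries was sequenced, 3 in each of 4 groups. Titles gave the groups, because the genotype label reads Col-0 for all 12. The authors deposited one table of normalized gene-level signal, and edgeR 3.22.3, HTSeq 0.6.0, TAIR10, TopHat and TopHat2 2.1.0 were listed, per the submitters' processing notes, without roles. How the signal was normalized is not given in the sources used here. It is not whole numbers and no common step could be found in a library, so no count test was used and depth is unknown. Columns that match no sample numbered 0.

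The signal was divided by 3.49, 1 was added and log2 was taken, which shrinks the changes of weak genes. Requiring a mean of at least 1 scaled unit left out 0 genes. The 4 group means were estimated in limma 3.58.1 (R 4.3.3) from all 12 libraries (intensity trend, 8 residual degrees of freedom), with two-sided p-values adjusted over 14897 genes by Benjamini-Hochberg at 0.05. The fit was also run on simulated data with independent noise and few changed genes. These data differ in both respects, so no conclusion is drawn from that run. Names, overlaps, transcript lengths and promoters came from the RefSeq annotation of TAIR10.1, which matched 14819 of the identifiers; family names follow Arabidopsis usage.

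Members and lists were chosen with earlier results of these data known. Members named with values were, by rule, the 6 highest and 6 lowest in each genotype, the 4 with the smallest p in each other comparison, the extremes of the 5 families with the widest range, the 5 highest and 3 lowest per kb, and copies chosen by role. Members called by the interaction, and those whose call a setting changed, are named outside that rule; 3 measured members count in the totals but are not reported here. Of each list, the 4 genes with the smallest p in Col-0 were eligible. Same-numbered libraries deviated together, with correlations of 0.116, 0.287 and 0.204 for L-Glu against urea in sid2. For sid2 against Col-0 under urea the correlations were 0.126, 0.219 and 0.196. This was not so in every pair of the other comparisons (-0.110 to 0.142). The replicate number was taken as a possible pairing only for L-Glu against urea in sid2 and for sid2 against Col-0 under urea. A weak pairing in the remaining comparisons is not excluded. The reported fit and its p-values do not use this pairing, which entered only through the replicate block, an alternative. Alternatives were other pseudocounts, scalings, filters and variance models, fits of only the compared groups, the replicate block, leaving out each library, and, added after seeing the data, leaving out both libraries that stood apart.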

Additional observations from a re-analysis of the deposited data

Results flagged for a closer look

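The interaction term of the limma fit, which tests whether the effect of L-Glu over urea was the same in sid2 and Col-0, passed an adjusted p of 0.05 for 14 members, of which 12 are given here. Each difference is given on the log2 scale as the sid2 effect minus the Col-0 effect. The largest was that of AT4G10450 of the RPL9 family, at 1.976, with effects of 1.29 in sid2 and -0.68 in Col-0. AT3G62870 of the RPL7a family followed at 1.789, with -0.05 in sid2 and -1.84 in Col-0. AT3G53430 of the RPL12 family stood at 1.578, with -0.08 in sid2 and -1.66 in Col-0. AT5G48760 of the RPL13a family gave 1.551, with 0.61 in sid2 and -0.94 in Col-0. AT2G44120 of the RPL7 family gave 1.465, the one besides AT4G10450 whose effects were called in opposite directions, at 0.71 in sid2 and -0.75 in Col-0. The 2 RPL10a copies were PGY1, at 1.445, and AT5G22440, at 1.372. In the small subunit RPS18A gave 1.399 and RPS5B 1.279. The remaining large subunit members were AT1G18540 of the RPL6 family, at 1.311, RPL5B, at 1.085, and AT3G13580 of the RPL7 family, at 1.006. Adjusted p-values ran from 0.014 for PGY1 to 0.0496 for AT5G48760, and each of these 12 calls was lost when at least 1 library was left out, from 1 library for PGY1 to 11 for RPS18A.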

How the results depend on the processing

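Members called by the interaction numbered 14 as reported. That count became 23 with a pseudocount of 5, 29 with libraries scaled to one total, 4 with quantile normalization, 4 without an intensity trend, 24 with the replicate block and 5 without both libraries that stood apart, an alternative added after seeing the data. The estimates of 12 of those 14 were followed and stayed above 0 in the alternatives run. For L-Glu against urea in sid2 the count became 36 at one total. The members' median became -0.7631 at one total and -0.5229 with quantile normalization in sid2, and -1.786 and -1.545 in Col-0; the median of all genes shifted as well in both. Their share of the signal in Col-0 given L-Glu was 0.3724% after quantile normalization. With single libraries left out, members called ranged from 14 to 21 in sid2, 48 to 56 in Col-0, 0 to 15 for the interaction, 20 to 46 between genotypes under L-Glu and 0 to 0 under urea, and the medians from -0.3268 to -0.07686, -1.225 to -1.055, 0.9282 to 1.137, 0.7119 to 0.9049 and -0.2862 to -0.0358. Shares ranged from 0.5029% to 0.5681%, 0.7786% to 0.8855%, 0.3316% to 0.3412% and 0.9721% to 1.058% in sid2 given L-Glu, sid2 given urea, Col-0 given L-Glu and Col-0 given urea. Some small sid2 effects turned sign. At one total AT5G27850 gave -0.03058, AT3G09630 -0.09228, AT2G31610 -0.2525, RPL10A -0.4616, AT5G02870 -0.2348, RPS5B -0.1846 and RPS18A -0.1807. With quantile normalization AT5G27850 gave -0.07853, AT3G09630 -0.09564, AT2G31610 -0.2176, RPL10A -0.5453 and AT5G02870 -0.2251. With single libraries left out, these estimates lay on both sides of 0: AT3G62870 from -0.226 to 0.05904, RPL5B from -0.1073 to 0.09874, RPS6A from -0.2331 to 0.1629 and RPL10A from -0.1131 to 0.2973. The cause of these changes was not tested. The replicate block gave 22 members in sid2, 56 in Col-0, 46 between genotypes under L-Glu and 0 under urea. Among named members, in the comparisons taken as possibly paired, the block changed only the sid2 calls of AT3G09630 and AT5G48760. The fit of only the compared groups could not be made for the interaction. Depth is unknown, so what it limits cannot be stated.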
